A study of Sus scrofa with 20 samples.

Results

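Counts of SGCA (alpha-sarcoglycan, ENSSSCG00000017583) and of other genes of the dystrophin-glycoprotein complex were examined in the hypothalamus of pigs. The complex was represented by 8 genes, SGCA, SGCB, SGCD, SGCE, DAG1, DMD, UTRN and DTNA, matched to the deposited count table by pig gene symbol. Of the 25880 gene rows, 6 belonged to these genes. SGCB and SGCD matched no row by symbol and were not analysed here. SGCA, DAG1 and DTNA had enough counts to be tested, and SGCE, DMD and UTRN had too few. The set was selected on the measured SGCA counts, because SGCA was higher in crossbred than in Iberian animals. The breed values of SGCA are therefore given as a description, with no test.

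The dystrophin-glycoprotein complex ties the actin cytoskeleton to the extracellular matrix. Dystrophin, or its relative utrophin, binds actin inside the cell and the membrane protein dystroglycan, whose sugar chains hold laminin, agrin and perlecan outside. Sarcoglycans stabilise the complex in the membrane, and dystrobrevins and syntrophins attach signalling proteins and channels. In striated muscle of humans, loss of SGCA causes a limb-girdle muscular dystrophy. In the brain the complex is known from neurons and from astrocyte endfeet on blood vessels, where it anchors the water channel AQP4 and the potassium channel KCNJ10.

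The hypothalami came from 20 pigs aged 2 months, and their messenger RNA was sequenced. The 4 groups were pure Iberian females, pure Iberian males, females of the cross of Iberian and Large White, and males of that cross, with 5 animals in each. Iberian pigs are a fat breed and Large White a lean one, and no treatment is given in the labels. The labels do not say which breed was the dam or whether animals shared a litter, so the p-values measure the spread between these 20 samples.

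Counts assigned to genes numbered 1430138 to 2384615 per library. They made up 4.04 to 4.62% of all entries, while 80.2 to 88.1% of entries had no feature. The filter on low counts was passed by 7090 genes. In every library the mitochondrial gene ND6, which lies on the strand opposite to its neighbours, had 19.8 to 141 times the counts of COX1. Whether the counts of a gene came from its messenger or from the opposite strand was not settled, and each symbol below stands for the row to which counts were assigned. The astrocyte gene GFAP had 695 to 1455 counts per library and the myelin gene MBP 1180 to 2649, while the choroid plexus gene TTR had at most 1. Other brain markers differed widely, with 1 to 9 counts of the astrocyte gene ALDH1L1. The microglial genes CX3CR1 and CSF1R had 0 to 8 and 269 to 842 counts. Iberian male 5 stood apart with 157 counts of the pituitary hormone gene PRL against at most 4 elsewhere, and is left out in turn below. The share of low-quality alignments was 5.33 to 5.92% in the 5 Iberian females and Iberian males 2 and 3, and 2.73 to 3.88% in the other 13 libraries, all crossbred animals among them.

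SGCA had 1944 counts over the 20 libraries, from 15 to 216 in each. In Iberian females it measured 27.0, 22.4, 26.5, 47.9 and 21.1 CPM (counts scaled to the size of each library) in replicates 1 to 5. Iberian males had 56.1, 36.4, 23.5, 24.0 and 11.6 CPM. Crossbred females had 39.3, 103, 72.6, 58.5 and 55.8 CPM, and crossbred males 106, 51.2, 56.4, 92.5 and 64.3 CPM. The breeds overlapped: Iberian male 1 and Iberian female 4 lay within the crossbred range, and the other 8 Iberian animals lay below all crossbred animals. All 10 crossbred animals were above the Iberian median of 25.2 CPM, and 7 of 10 were above every Iberian animal.

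**Figure D1:**
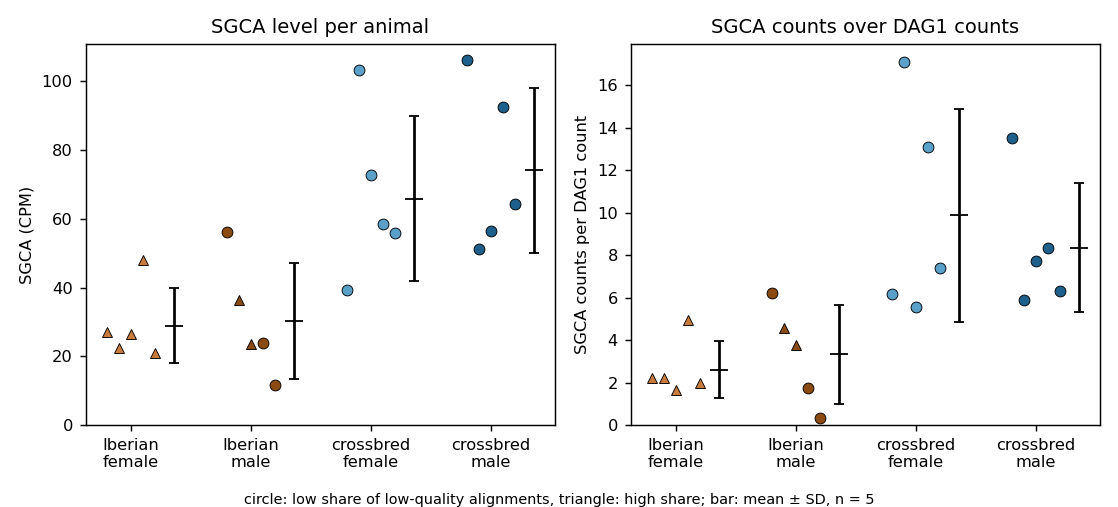
SGCA in each animal, as CPM (left) and as counts of SGCA per count of DAG1 in the same library (right), by group. Points are animals, triangles mark libraries with a high share of low-quality alignments, and bars give mean ± SD (n = 5). Crossbred animals sit between 39.3 and 106 CPM and Iberian animals between 11.6 and 56.1 CPM. The ratio also holds the lower mean of DAG1 in crossbred animals.

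These values chose the gene, and their size was as follows. SGCA averaged 70.0 ± 23.0 CPM in crossbred and 29.6 ± 13.4 CPM in Iberian animals (n = 10 per breed, SD), a fitted log2 difference of 1.22 (SE 0.24) or 2.33-fold. The difference was 1.17 (SE 0.34) in females and 1.27 (SE 0.33) in males. A difference in bulk tissue cannot tell more cells of a type from more RNA per cell. Leaving out each library in turn gave 1.11 to 1.40, with 1.14 (SE 0.24) without Iberian male 5.

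The share of low-quality alignments followed breed in part. All Iberian females had a high share and all crossbred females a low one. In females the share and breed therefore cannot be told apart for SGCA. The SGCA values of Iberian males, the only group with libraries of both kinds, are given by share. Iberian males 2 and 3, with a high share, averaged 29.9 ± 9.13 CPM (SD, n = 2), and Iberian males 1, 4 and 5, with a low share, 30.6 ± 23.0 CPM (SD, n = 3). The low-share males were at 56.1, 24.0 and 11.6 CPM, so the 2 means say little about the share. Among low-share libraries alone, the fitted breed difference in males was 1.25 (SE 0.40) with 3 Iberian and 5 crossbred males. With the share as a covariate, estimated from Iberian males alone, the breed difference over both sexes was 1.17 (SE 0.45). It was 0.83 (SE 0.47) when Iberian male 5 was also left out.

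SGCA did not differ between sexes beyond the spread between animals. Males averaged 52.2 ± 30.2 and females 47.4 ± 26.2 CPM (SD, n = 10 each), a fitted 0.12 on the log2 scale (SE 0.24, 95% interval -0.38 to 0.62, edgeR adjusted p = 1.00). The breed difference in males minus that in females was 0.10 on the log2 scale (SE 0.48, 95% interval -0.90 to 1.10, edgeR adjusted p = 0.975). Without Iberian male 1 the sex difference was -0.058. The interaction was -0.18 without Iberian female 4, -0.062 without Iberian male 5, -0.039 without crossbred female 1 and -0.059 without crossbred male 1. Of the 3 tested members none passed for sex (0.0705% of all genes passed) or for the interaction (0.0141%) with edgeR, DESeq2 or limma voom, and none had an unadjusted edgeR p under 0.05, against 3.60% of all genes for sex and 8.36% for the interaction.

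DAG1 encodes dystroglycan, the laminin receptor at the centre of the complex (ENSSSCG00000034357). It measured 12.1, 10.1, 15.8, 9.68 and 10.5 CPM in Iberian females and 8.999, 7.96, 6.20, 13.7 and 35.6 CPM in Iberian males. Crossbred females had 6.35, 6.04, 13.1, 4.47 and 7.53 CPM, and crossbred males 7.86, 8.70, 7.32, 11.12 and 10.2 CPM. Iberian male 5 was far above all other animals, the remaining ranges of the breeds overlapped, and 8 of 10 crossbred animals were below the Iberian median.

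The breed difference of DAG1 did not pass the threshold. Crossbred animals averaged 8.26 ± 2.58 CPM and Iberian animals 13.1 ± 8.40 CPM (n = 10 per breed, SD), and the fitted value was -0.62 (SE 0.26, 95% interval -1.15 to -0.09, edgeR adjusted p = 0.564). Without Iberian male 5 it was -0.35 (SE 0.19, edgeR adjusted p = 0.625), and in males alone it went from -0.59 to -0.04 when that library was left out. In females alone it was -0.65 (SE 0.37, edgeR adjusted p = 0.940). All Iberian females had a high share of low-quality alignments and all crossbred females a low one, so in females the share and breed cannot be told apart. With the share as a covariate, estimated from Iberian males alone, the value in females was -2.03 (SE 0.55, edgeR adjusted p = 0.517), and -1.37 (SE 0.48, edgeR adjusted p = 0.938) without Iberian male 5. Over both sexes, with the covariate, it was -1.53 (SE 0.37, edgeR adjusted p = 0.158), where Iberian males 2 and 3 had 7.08 CPM on average and Iberian males 1, 4 and 5 had 19.4 CPM. Without Iberian male 5 as well it was -0.86 (SE 0.35, edgeR adjusted p = 0.690). Over all alternatives the adjusted p of the breed difference ran from 0.158 to 0.995.

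DTNA encodes alpha-dystrobrevin, which binds dystrophin and syntrophins (ENSSSCG00000028047). It measured 3.55, 2.17, 5.07, 4.84 and 4.79 CPM in Iberian females and 3.71, 5.12, 7.97, 6.85 and 8.52 CPM in Iberian males. Crossbred females had 3.47, 3.84, 4.91, 3.66 and 6.27 CPM, and crossbred males 4.91, 5.12, 7.75, 3.56 and 2.82 CPM. The ranges of all 4 groups overlapped. These values rest on 3 to 18 counts per library.

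DTNA did not differ between breeds beyond the spread between animals, at -0.16 on the log2 scale (SE 0.23, 95% interval -0.64 to 0.32, edgeR adjusted p = 0.904). Between sexes it was 0.38 (SE 0.23, 95% interval -0.10 to 0.86, edgeR adjusted p = 1.00), with 5.63 ± 2.02 CPM in males and 4.26 ± 1.14 CPM in females. DAG1 had 0.26 between sexes (SE 0.26, 95% interval -0.27 to 0.78, edgeR adjusted p = 1.00), and -0.018 without Iberian male 5. Of DAG1 and DTNA, neither passed between breeds with edgeR, DESeq2 or limma voom, against 0.226% of all genes with edgeR, and 1 of them, DAG1, had an unadjusted edgeR p under 0.05, against 7.48% of all genes. Neither passed between breeds in females, where 0% of all genes passed, or in males, where 0.0282% passed, and neither had an unadjusted edgeR p under 0.05 there, against 5.53% of all genes in females and 10.7% in males. Neither DAG1 nor DTNA had breeds without overlap, against 0.0423% of all genes over both sexes, 1.21% in females and 1.88% in males. Between sexes none of the 3 tested members, SGCA included, was without overlap, against 0.0564% of all genes.

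**Figure D2:**
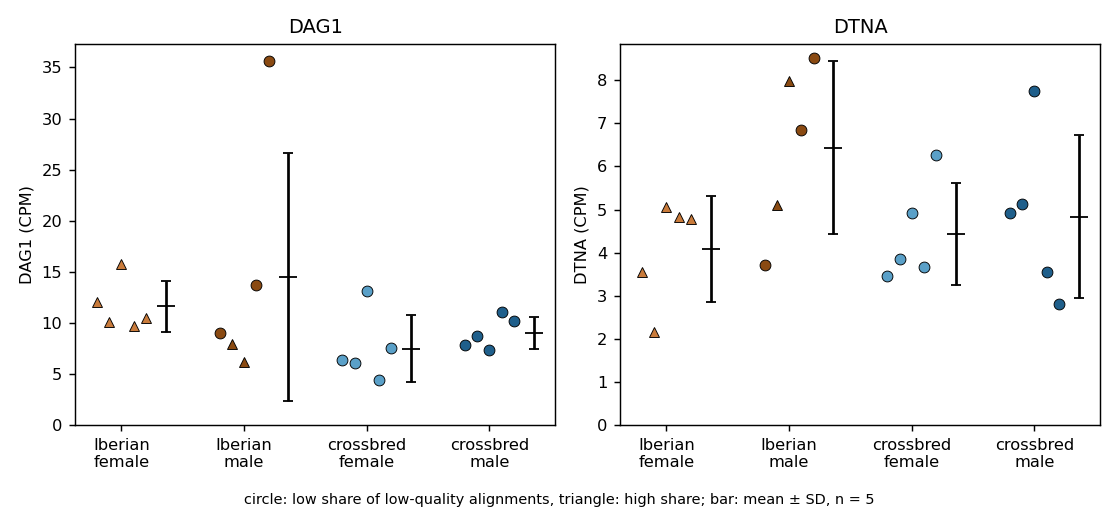
CPM of DAG1 (left) and DTNA (right) in each animal, by group. Points are animals, triangles mark libraries with a high share of low-quality alignments, and bars give mean ± SD (n = 5). Iberian male 5 has 35.6 CPM of DAG1 against 4.47 to 15.8 in the other animals, and the groups overlap for both genes.

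The 3 members below the filter are given by their counts. UTRN encodes utrophin, the dystrophin relative of vessels and non-muscle cells (ENSSSCG00000004123). It had 2, 3, 6, 11 and 9 counts in Iberian females and 8, 8, 6, 11 and 3 in Iberian males, and 9, 9, 14, 4 and 3 in crossbred females and 6, 5, 9, 4 and 13 in crossbred males. Its 143 counts came to a pooled 3.67 CPM in Iberian animals (95% exact Poisson interval 2.84 to 4.66) and 3.84 in crossbred animals (3.03 to 4.81), intervals that cover counting error only.

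SGCE encodes epsilon-sarcoglycan, the relative of SGCA that is expressed widely in the brain and is altered in myoclonus-dystonia in humans (ENSSSCG00000015328). It had 5, 3, 3, 9 and 2 counts in Iberian females, 1, 2, 4, 2 and 6 in Iberian males, 3, 2, 7, 3 and 4 in crossbred females and 2, 4, 4, 3 and 1 in crossbred males. Its 70 counts came to a pooled 2.03 CPM in Iberian animals (95% exact Poisson interval 1.43 to 2.79) and 1.67 in crossbred animals (1.15 to 2.34). No library had more than 9 counts of SGCE, and the 2 intervals overlap.

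DMD encodes dystrophin itself and lies on chromosome X (ENSSSCG00000028148). It had 0, 1, 1, 2 and 1 counts in Iberian females, 1, 3, 1, 3 and 0 in Iberian males, 0, 5, 3, 1 and 0 in crossbred females and 1, 0, 2, 0 and 1 in crossbred males. Its 26 counts were split into 13 in each breed, 14 in females and 12 in males, and 6 libraries had none. The low counts cannot be read as low expression, since the strand of the assigned counts was not settled.

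**Figure D3:**
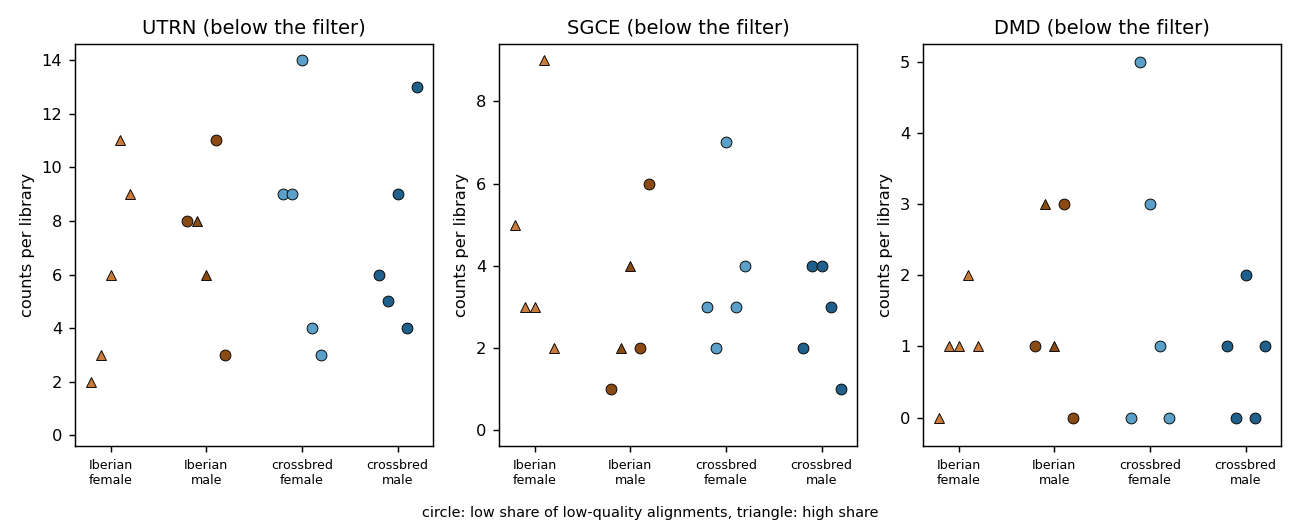
Counts per library of UTRN, SGCE and DMD, the 3 members with too few counts to test, by group. Points are animals and triangles mark libraries with a high share of low-quality alignments. The groups overlap for each gene, with at most 14 counts of UTRN, 9 of SGCE and 5 of DMD in a library.

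Because SGCA and DAG1 are counted in the same library, their ratio does not depend on library scaling. It does hold any breed difference of DAG1, which had a fitted -0.62 (SE 0.26) that did not pass. DAG1 had 11 to 46 counts per library. SGCA had 2.24, 2.21, 1.68, 4.95 and 2.00 counts per DAG1 count in Iberian females and 6.24, 4.57, 3.79, 1.75 and 0.326 in Iberian males. Crossbred females had 6.18, 17.1, 5.54, 13.1 and 7.42, and crossbred males 13.5, 5.88, 7.71, 8.32 and 6.33. Iberian male 1 was the only Iberian animal within the crossbred range.

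On Sscrofa11.1, SGCA spans 26356691 to 26368561 of chromosome 12, and RefSeq genes of that build showed none overlapping it. COL1A1 begins 10526 bp after its end, and PPP1R9B, which encodes the dendritic spine protein spinophilin, spans 26319123 to 26337089. None of the tested neighbours within 50 kb passed between breeds. PPP1R9B had 82.4 ± 10.8 CPM in crossbred and 82.96 ± 19.8 CPM in Iberian animals, with a breed difference of -0.00 (SE 0.12, edgeR adjusted p = 1.00). SAMD14 had 1347 ± 93.9 and 1344 ± 107 CPM, with a breed difference of 0.00 (SE 0.06, edgeR adjusted p = 0.990). COL1A1, a fibrillar collagen, had -0.49 (SE 0.39, edgeR adjusted p = 0.814). Its counts in Iberian male 5 were 81, against at most 36 in the other animals.

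**Figure D4:**
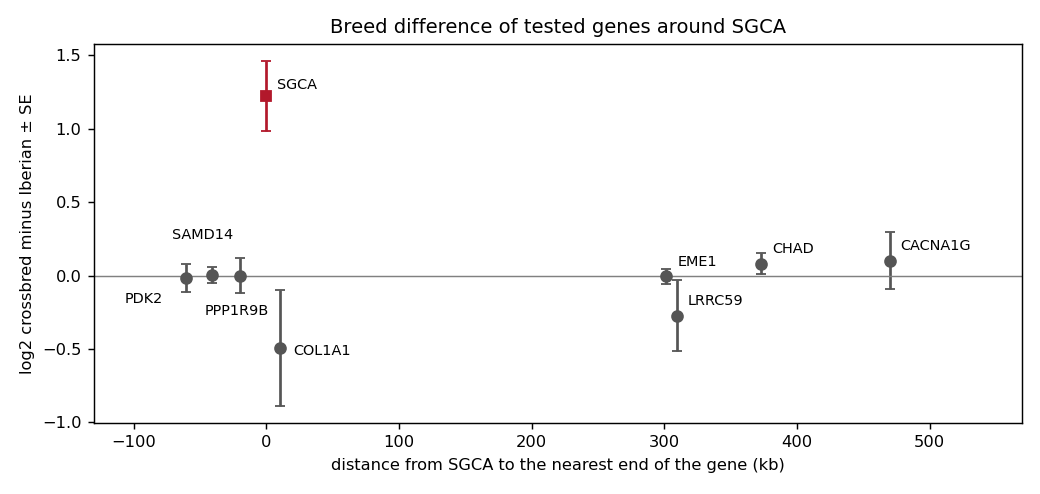
Log2 difference between breeds, crossbred minus Iberian, of the 8 tested genes within 500 kb of SGCA and of SGCA itself (square), by distance in kb. Bars are SE. The 8 neighbours lie between -0.49 and 0.10, and SGCA is at 1.22, the value that chose it.

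Within 500 kb on either side, a window chosen after the data were seen, 8 of 32 RefSeq genes were tested and 0 passed between breeds. Their log2 differences ran from -0.49 to 0.10. The count of SGCA per 100 counts of PPP1R9B, again free of library scaling, was 85.9 ± 29.4 in crossbred and 39.7 ± 23.6 in Iberian animals, with ranges of 56.5 to 137 and 9.68 to 78.5 that overlapped.

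The places of the other members bear on their counts, since the counting may not separate adjoining genes. PEG10 lies 217 bp from SGCE on chromosome 9. DAG1 on chromosome 13 overlaps a transcribed pseudogene, DTNA on chromosome 6 overlaps a non-coding RNA gene, UTRN on chromosome 1 overlaps a pseudogene, and DMD overlaps 3 pseudogenes and a tRNA gene. Their counts are therefore uncertain.

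Further genes of the pathway were taken from 4 lists of 66 symbols, of which 52 had a row and 27 were tested. None passed between breeds with edgeR, DESeq2 or limma voom, against 0.226% of all genes with edgeR, and none had an unadjusted edgeR p under 0.05, against 7.48%. Of the 27, 16 were above 0 and 11 below, with a median log2 difference of 0.02 against -0.00 over all genes. Between sexes none passed with any of the 3 tools, 1 had an unadjusted edgeR p under 0.05, and the median was 0.11 against 0.01 over all genes. None passed with any of the 3 tools between breeds in females, in males or for the interaction, where 3, 2 and 3 of the 27 had an unadjusted edgeR p under 0.05, against 5.53%, 10.7% and 8.36% of all genes.

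Among other subunits and their binding proteins, 3 of 13 were tested. Syncoilin (SYNC), an intermediate filament protein that binds alpha-dystrobrevin, had a log2 difference between breeds of 0.30 (SE 0.23, edgeR adjusted p = 0.804). Dysbindin (DTNBP1), which binds dystrobrevins, had -0.29 (SE 0.21, edgeR adjusted p = 0.788), and sarcospan (SSPN), the partner of the sarcoglycans, had 0.09 (SE 0.26, edgeR adjusted p = 0.958). SYNC overlaps RBBP4 and DTNBP1 overlaps an unnamed locus.

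Of the enzymes that build the laminin-binding sugars of dystroglycan, 8 of 21 were tested, 5 above 0 and 3 below, with a median of 0.05. POMGNT1, which adds N-acetylglucosamine to O-mannose, had -0.35 (SE 0.21, edgeR adjusted p = 0.737), at 15.3 ± 3.17 CPM in crossbred and 20.3 ± 12.6 CPM in Iberian animals. Its highest level was 55.0 CPM in Iberian male 5, against a median of 16.1 CPM over the 20 libraries. B3GALNT2, which overlaps TBCE, had -0.09 (SE 0.09, edgeR adjusted p = 0.852), at 101 ± 11.5 CPM in crossbred and 107 ± 13.6 CPM in Iberian animals.

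Of the matrix and synaptic ligands of dystroglycan, 7 of 16 were tested, 4 above 0 and 3 below, with a median of 0.13. Agrin (AGRN), which organises synapses and overlaps an unnamed locus, had 0.25 (SE 0.14, edgeR adjusted p = 0.691). The laminin chains LAMB1 and LAMB2 had 0.24 (SE 0.26, edgeR adjusted p = 0.873) and 0.20 (SE 0.23, edgeR adjusted p = 0.877), and LAMB1 overlaps an unnamed locus. Between sexes all 7 fitted values, male minus female, were above 0, from 0.03 to 0.28, against 52.5% of all genes above 0. None of the 7 passed.

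Of the partners of the complex, 9 of 16 were tested, 5 above 0 and 4 below, with a median of 0.00. The endfoot water channel AQP4 had 37.9 ± 4.42 CPM in crossbred and 44.2 ± 15.5 CPM in Iberian animals, with a breed difference of -0.24 (SE 0.16, edgeR adjusted p = 0.766). Of the crossbred animals 9 of 10 lay under the Iberian median. The potassium channel KCNJ10 had -0.20 (SE 0.18, edgeR adjusted p = 0.839), and 8 of 10 lay under its Iberian median. Neither gene passed. Counts as uneven went the other way for the ligand LAMB1, with 9 of 10 above its Iberian median, which did not pass either. The polarity kinase MARK2 had 0.14 (SE 0.11, edgeR adjusted p = 0.804) and overlaps a microRNA gene. Between sexes MARK2 had 0.26 (SE 0.11, edgeR adjusted p = 1.00), the 1 unadjusted p under 0.05 above.

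**Figure D5:**
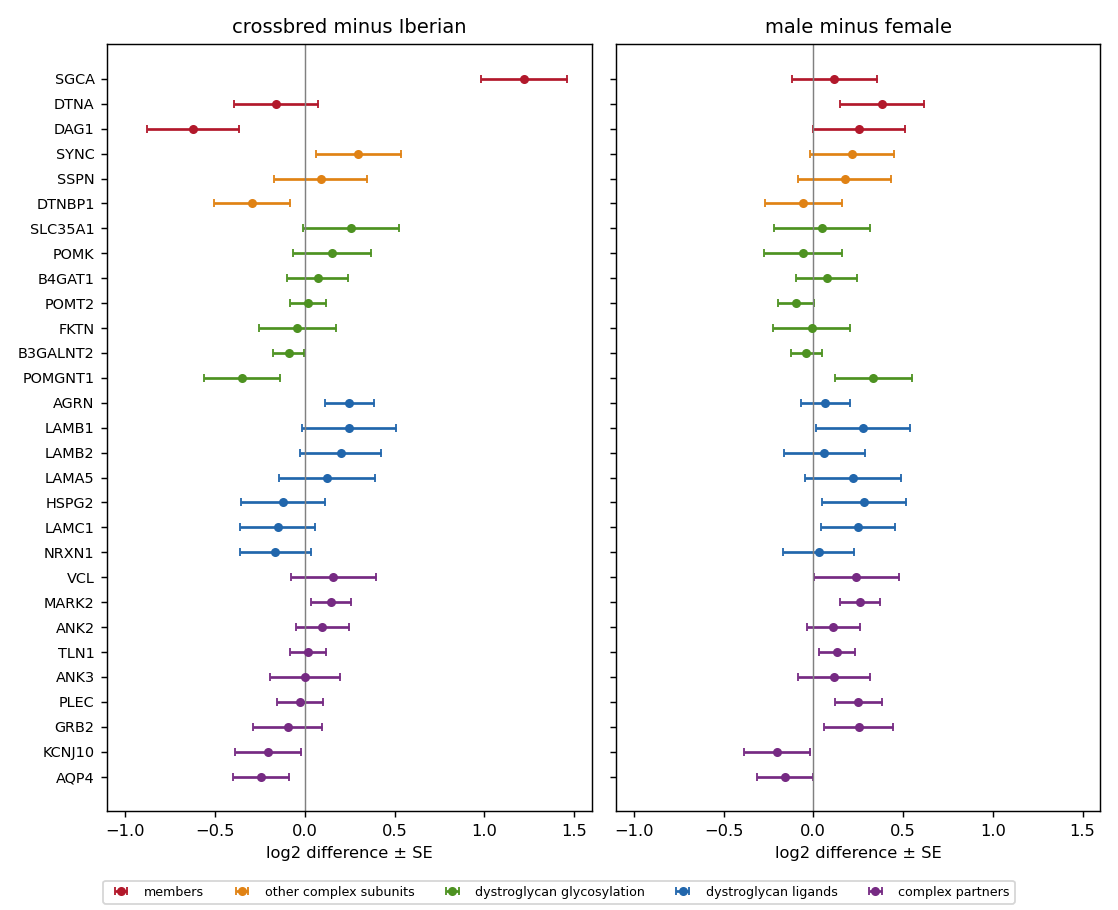
Log2 differences with SE of the 3 tested members and of the tested genes of the 4 pathway lists that are reported here, crossbred minus Iberian (left) and male minus female (right). SGCA is at 1.22 between breeds, the value that chose it, so its distance from the others was fixed by that choice. The other genes run from -0.62 (DAG1) to 0.30 (SYNC).

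SGCA is best known from muscle, so muscle markers were set beside it. Of 20 skeletal and cardiac muscle markers 13 had a row, and MYL1, TNNT3, TNNT2 and MYOD1 were at 0 in all 20 libraries. Their summed level was 611 to 679 CPM in Iberian females, 383 to 645 in Iberian males, 595 to 664 in crossbred females and 617 to 701 in crossbred males. Nearly all of it was CKM, muscle creatine kinase, with 481 to 1530 counts per library. Without CKM the sum was 13.0 to 28.2, 8.41 to 29.6, 14.4 to 34.7 and 9.73 to 26.0 CPM in the same order. CKM had a log2 difference between breeds of 0.08 (SE 0.07, edgeR adjusted p = 0.838), MYOG -0.10 (SE 0.24, edgeR adjusted p = 0.956) and ACTA1 -0.24 (SE 0.31, edgeR adjusted p = 0.901).

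All 11 markers of smooth muscle and pericytes, the contractile cells of vessels, had a row, and none was at 0 throughout. They summed to 131 to 202 CPM (median 152) in crossbred and 121 to 189 CPM (median 135) in Iberian animals. All 5 tested were above 0 between breeds, with a median of 0.15, and none passed or had an unadjusted edgeR p under 0.05, where 49.1% of all genes were above 0 and 7.48% had such a p. In females 4 of the 5 were above 0, with a median of 0.44, and 2 had an unadjusted edgeR p under 0.05, against 51.5% and 5.53% of all genes. In males 3 of the 5 were above 0, with a median of 0.01, and 0 had an unadjusted edgeR p under 0.05, against 48.0% and 10.7% of all genes. Their part in the SGCA values was not tested. Over the 12 marker lists together 47 genes were tested, and GYPC, a red-cell membrane protein on the blood list, was the 1 gene called between breeds, by edgeR and DESeq2 and not by limma voom, where edgeR called 0.226% of all genes. The call was lost with the low-quality share as a covariate, where edgeR called 0 of all genes between breeds. It had 12.5 ± 6.24 CPM in crossbred and 4.56 ± 1.65 CPM in Iberian animals, with a breed difference of 1.43 (SE 0.30, edgeR adjusted p = 0.0344). Of the tested markers, 2 of 7 were above 0 for astrocytes, 6 of 9 for oligodendrocytes, 2 of 8 for neurons, 2 of 5 for microglia, 0 of 3 for endothelium, 0 of 2 for fibroblasts, 0 of 2 for ependyma, 0 of 1 for the anterior pituitary and 1 of 2 for blood. No choroid plexus marker had enough counts.

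The 5 named genes whose levels were most like those of SGCA were TMEM138, CDC42EP5, GFRA1, TOP1MT and ADAM17, by correlation of log2 CPM over the 20 animals. TMEM138, a membrane protein of cilia, had a Pearson r of 0.83 and a Spearman rho of 0.76. CDC42EP5, an effector of the GTPase CDC42, had 0.79 and 0.78, and GFRA1, the receptor of the neurotrophic factor GDNF, had 0.79 and 0.75. TOP1MT, the mitochondrial topoisomerase, had 0.78 and 0.76, and ADAM17, a membrane protease, had 0.77 and 0.69. These values hold the breed difference that chose SGCA. The 5 genes were themselves higher in crossbred animals, by 0.57, 0.71, 0.78, 0.47 and 0.24 on the log2 scale in the order named. Likeness to SGCA in part fixed these differences, so they are given with no test. For deviations from the group means, r was 0.57 for TMEM138, 0.65 for CDC42EP5, 0.63 for GFRA1, 0.56 for TOP1MT and 0.62 for ADAM17. The 5 genes were chosen for a high r over the same libraries, so a high r of deviations was in part fixed by that choice. Without Iberian male 5 the Pearson r of log2 CPM was 0.78, 0.71, 0.70, 0.69 and 0.69 in the same order. TMEM138 and ADAM17 overlap other genes. The correlation of deviations with SGCA was -0.40 for DAG1 and -0.33 for DTNA. The Pearson r of log2 CPM with SGCA was -0.55 for DAG1 and -0.31 for DTNA, and -0.31 and -0.13 without Iberian male 5.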

How the data were processed

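Gene counts were deposited by the authors as raw whole numbers per Ensembl gene, 1 column per animal. Build Sscrofa11.1 and the tools HISAT2, HTSeq, DESeq2, FastQC and Trim Galore are named, per the submitters' processing notes. Their versions, the annotation release and the strand setting are not given in the sources used here. Library sizes leave out 5 summary lines. Of all entries, 80.2 to 88.1% had no feature, 3.89 to 9.50% were not unique, 2.73 to 5.92% had low quality, 0.548 to 0.665% were not aligned and 0.0864 to 0.121% were ambiguous. Symbols matched 14857 of 25880 rows.

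Counts were fitted with edgeR 4.0.16 (R 4.3.3): TMM scaling, filterByExpr (minimum 10, total 15), 1 mean for each of 4 groups, robust quasi-likelihood tests and Benjamini-Hochberg adjustment over 7090 genes at a threshold of 0.05. CPM use the scaled library sizes, and correlations use log2 CPM with a prior count of 2. Intervals are 95%. The code was tested on simulated data. Alternatives included DESeq2 1.42.0 and limma 3.58.1 voom. Members, lists and tests were chosen with earlier results of these data known. Named genes were all members, called genes of the lists, the 3 smallest breed p per pathway list, the 5 genes most like SGCA and its neighbours within 50 kb. A gene that this rule names is not reported here and not drawn, and list counts and medians include it. Within groups, 40 pairs of libraries had chi-square per degree of freedom of 2.45 to 73.8, so no pair differed by counting error alone. This cannot exclude separate libraries made from the same animal. Positions are RefSeq genes of Sscrofa11.1. The table gives no transcript lengths, so levels of different genes were not compared.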

Additional observations from a re-analysis of the deposited data

Results flagged for a closer look

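In 24 sets of 5 animals (6 members in 4 groups), the highest and lowest animal were compared with the rest of their group, and chance sets about 1 in 20 groups apart. Iberian female 4 stood above its group for SGCA, with 47.9 CPM against 21.1 to 27.0 in the other Iberian females. Without that animal the breed difference of SGCA in females was 1.45 on the log2 scale, against 1.17 with it. Iberian male 5 stood above its group for DAG1, with 35.6 CPM against 6.20 to 13.7 in the other Iberian males. The same library had the lowest SGCA level, 11.6 CPM, and held 157 counts of PRL, 163 of CGA and 111 of FSHB, hormones of the pituitary, against at most 4, 2 and 2 elsewhere. Of 8 anterior pituitary markers 6 had a row, and their summed level was 686 CPM in that library against 87.0 to 144 CPM in the others. CHGA made up 350 CPM of that sum, and had at least 85.3 CPM in every library. POU1F1, on the same list, went the other way, with 1 count in Iberian male 5 against at most 5 elsewhere. The part of these markers in the SGCA and DAG1 values of Iberian male 5 was not tested.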

How the results depend on the processing

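The breed difference of SGCA, which chose the gene and was not tested, ran from 0.83 to 1.40 over all alternatives. It was 1.22 (SE 0.24) in the main fit. The lowest value, 0.83 (SE 0.47), came with the low-quality alignment share as a covariate and without Iberian male 5. No tested difference of a member passed under any alternative. The number of genes called between breeds was 16, against 78 with no filter, 0 with the low-quality alignment share as a covariate and 1 with that covariate and without Iberian male 5, and 2 (without crossbred female 4) to 23 (without Iberian male 5) when 1 library was left out. In females it was 0, against 3 with limma voom, 17 with no filter, 4 with only the groups compared and 0 to 8 with 1 library left out. In males it was 2, against 16 with DESeq2, 9 with limma voom, 48 with no filter, 1 with the filter at 1 CPM in 5 libraries, 0 with the share covariate, 4 with it and without Iberian male 5, 1 in low-share libraries and 0 to 7 with 1 library left out. Between sexes it was 5, against 9 with DESeq2, 12 with no filter and 9 with the CPM filter. For the interaction it was 1, against 7 with no filter, 0 with the share covariate, 0 with the replicate block and 0 to 1 with 1 library left out.

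Signs turned only for values that did not pass. DTNA between breeds was 0.11 with the share covariate and without Iberian male 5. DAG1 between sexes was -0.22 with the share covariate, with and without Iberian male 5. With 1 library left out, SGCA between sexes ran from -0.058 to 0.25, DAG1 between sexes from -0.018 to 0.40, the SGCA interaction from -0.18 to 0.44, the DAG1 interaction from -0.15 to 0.61, and DTNA between breeds in females from -0.085 to 0.135. The cause was not tested. Same-numbered libraries shared no pairing in the labels (median correlation of deviations 0.02, over 0.1 in 5 of 30 pairs). With the replicate block the SGCA breed difference was 1.25 and the block changed no call of a member. Counts of 3 to 18 per library limit DTNA, and those of SGCE, DMD and UTRN were too low to test.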

Other observations

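SGCA varied widely between animals of the same group. Its within-group SD was 0.57 on the log2 scale, larger than that of 98.1% of the 1559 tested genes whose mean level was within 1 log2 unit of it, whose median SD was 0.28. Without Iberian male 5 it was 0.49, larger than that of 97.4% of genes of like level in those 19 libraries. The coefficient of variation of SGCA was 37.6% in Iberian females, 55.7% in Iberian males, 36.4% in crossbred females and 32.3% in crossbred males (n = 5 each). DAG1 also varied widely, with a within-group SD of 0.55, larger than that of 87.1% of 3839 genes of like level. DTNA had a within-group SD of 0.39, larger than that of 26.4% of 2854 genes of like level.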
